A study of Homo sapiens with 6 samples.

Results

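The mitochondrial ribosomal protein genes are the nuclear genes that code for the proteins of the ribosome inside mitochondria. They were taken as the protein-coding genes with a symbol of MRPL or MRPS followed by a number, with or without a final A or B. This gave 77 of the 62703 genes in the deposited tables, 49 named for the large subunit (MRPL) and 28 for the small subunit (MRPS). MRPS18C, which ends in another letter, fell outside the rule and is described with the related genes. The 77 genes lay on 21 chromosomes, with no more than 8 on any of them.

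RNA sequencing was done on H929, a single established cell line grown from a human multiple myeloma, which is a malignancy of the plasma cells that secrete antibodies. The cells, of genotype WT per the labels, were given 1 µM Mi-2, an inhibitor of the protease MALT1, or the solvent DMSO, and both groups were harvested after 24 h. Each group held 3 libraries, made from total RNA of the same line grown in the same medium. The titles number the libraries of a group 1 to 3 but mark each of them "bio rep 1", and nothing else in the labels says that they came from separate cultures. Every p-value below therefore reflects the spread between these libraries alone, which may be technical.

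The mitochondrial ribosome translates the few messenger RNAs that the mitochondrial genome still encodes, all of them for subunits of the respiratory chain and the ATP synthase. Its ribosomal RNAs are made inside the organelle, whereas its proteins are encoded in the nucleus, made in the cytosol and imported. Some of these proteins have a counterpart in the bacterial ribosome, and others occur only in mitochondria, where they enlarge the particle and anchor it to the inner membrane. Myeloma cells keep the antibody secretion of plasma cells, which is costly in energy, and mitochondria supply much of a cell's energy.

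Most of these genes were slightly lower after Mi-2, and 9 of the 77 passed the test of the whole transcriptome as lower, with falls of 1.24-fold to 1.44-fold. None passed as higher. The 9 were MRPL1, MRPL12, MRPL34, MRPL37 and MRPL39 of the large subunit and MRPS5, MRPS7, MRPS23 and MRPS25 of the small subunit. The shift of the family as a whole was small, with a median fold of 1.16 in the downward direction, while the proteins of the cytosolic ribosome had a median log2 fold change of 0.01. Median log2 fold changes were -0.22 for the members, -0.23 for assembly factors of the mitochondrial ribosome and -0.24 for mitochondrial DNA and RNA factors. A shift of this size was thus not particular to the members.

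All 77 genes passed the filter on low counts, so no member was left out of the test. The test was edgeR's quasi-likelihood F test over 16082 genes with Benjamini-Hochberg adjustment, and a gene was called when its adjusted p was under 0.05. Members called lower made up 11.7% of the 77, against 6.03% of all tested genes (969) and 7.31% of the tested protein-coding genes. Of all tested genes, 5.02% were called higher, against 0 of the members, and DESeq2 and limma-voom also called 0 members higher. Without adjustment, 34 members had a p under 0.05, of which 32 were lower and 2 (MRPS14 and MRPL10) higher. No test of the list as a whole was made, since the members were chosen with results of these data known.

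The direction was shared more widely than the calls. The log2 fold change of Mi-2 against DMSO was below 0 in 67 members and above 0 in 10, and ran from -0.52 (MRPL1) to 0.27 (MRPL10). The median over the 77 was -0.22, with quartiles of -0.31 and -0.08, beside a median of 0.005 over all tested genes. In 42 members every Mi-2 library lay below every DMSO library in CPM (counts scaled to library size, with TMM scaling between libraries), where 16.6% of all tested genes were separated in that direction. In 3 members, MRPS14, MRPL43 and MRPL53, every Mi-2 library lay above every DMSO library, where the share of all tested genes was 15.7%. In RNA from whole cultures, fewer cells of a kind and less RNA of a gene per cell cannot be told apart.

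**Figure D1:**
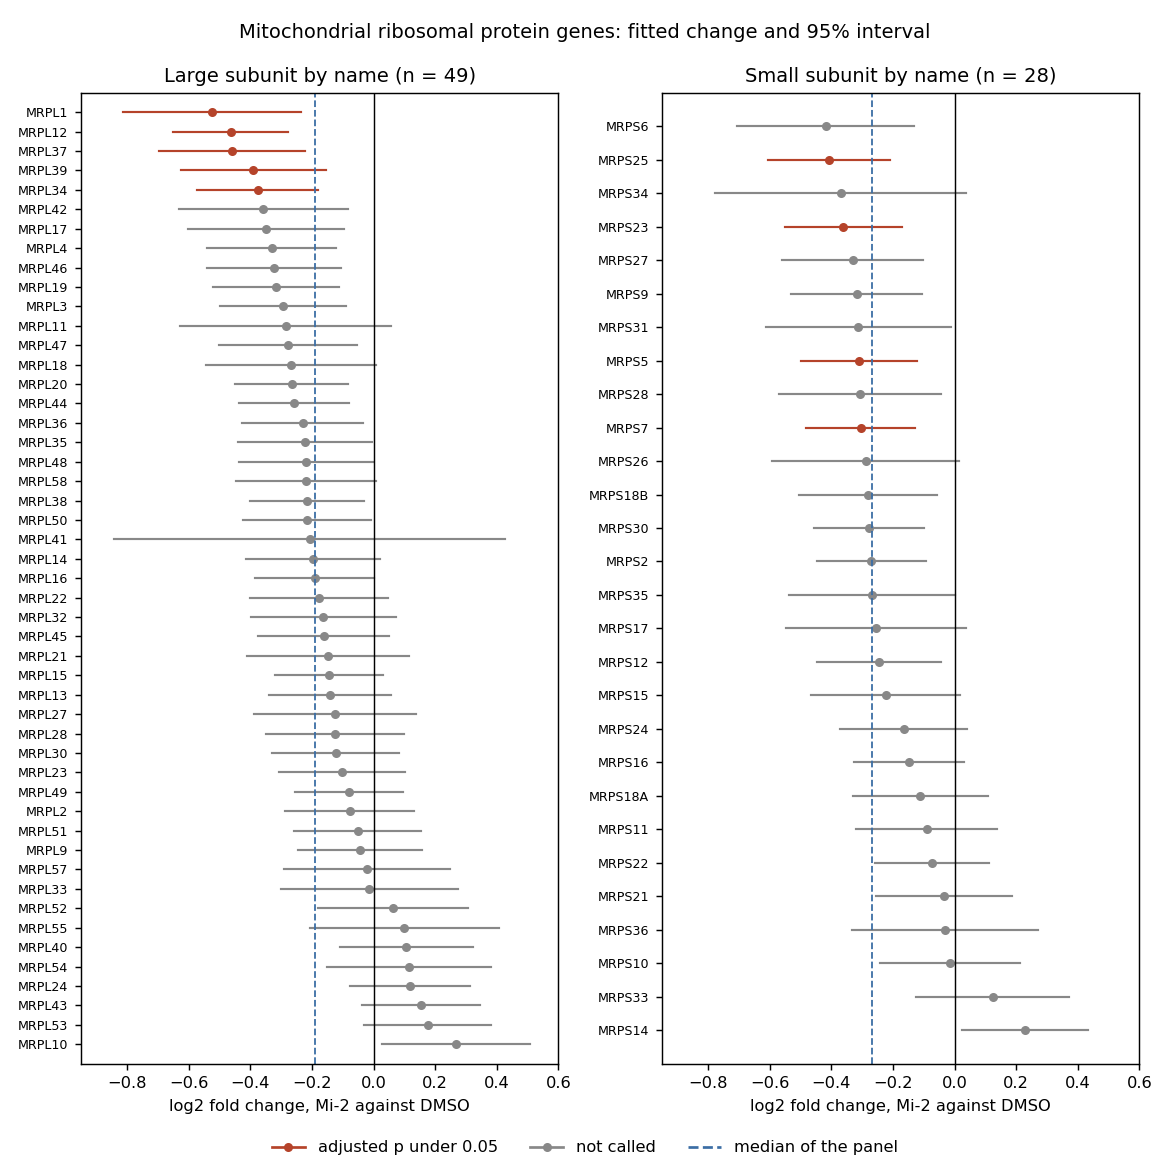
Log2 fold change of Mi-2 against DMSO for each of the 77 genes (points) with its 95% interval (lines), large subunit names on the left and small subunit names on the right. Red marks the 9 genes called lower, the dashed line is the median of each panel (-0.19 and -0.27), and most points lie left of 0.

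The upstream sequences of 3 of the called genes show what was and was not found in front of them, since the genes of this family are known to be read from promoters with sites for NRF1, ETS factors such as GABPA, and YY1. Each stretch is the 200 bases before the RefSeq start of the gene on GRCh38.p14, written 5′ to 3′ on the strand of the gene, with matches to the searched motifs in capitals. MRPS23, on the minus strand (chr17:57850045-57850244), held an ETS motif close to the start. MRPL37, on the plus strand (chr1:54199967-54200166), held an NRF1 motif and an E-box, the motif of MYC and related factors. Its RefSeq start lay 16126 bases from its GENCODE start, so this stretch lies inside the gene span given below. MRPL12, on the plus strand (chr17:81703167-81703366), held none of the motifs.
MRPS23: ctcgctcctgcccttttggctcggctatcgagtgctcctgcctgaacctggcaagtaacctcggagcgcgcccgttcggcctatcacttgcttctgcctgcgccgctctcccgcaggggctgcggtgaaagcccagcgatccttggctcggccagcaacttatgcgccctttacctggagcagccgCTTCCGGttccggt
MRPL37: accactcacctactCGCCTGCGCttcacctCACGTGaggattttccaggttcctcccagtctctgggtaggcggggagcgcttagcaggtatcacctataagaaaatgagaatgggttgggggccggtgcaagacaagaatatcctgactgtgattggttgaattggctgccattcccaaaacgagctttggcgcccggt
MRPL12: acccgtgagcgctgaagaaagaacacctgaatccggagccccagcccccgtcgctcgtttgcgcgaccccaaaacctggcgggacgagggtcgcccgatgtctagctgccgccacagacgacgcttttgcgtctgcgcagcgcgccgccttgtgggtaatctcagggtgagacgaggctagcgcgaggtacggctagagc

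RefSeq promoters were matched by symbol for 68 of the 77 members and not for the other 9. As in MRPL37, the start used lay far from the GENCODE start in MRPS5 (27431 bases), MRPL11 (27890) and MRPS22 (338188). In windows of 250 bases before to 50 after the start, on both strands, the ETS motif CCGGAAG occurred in 28 of the 68, or 41.2%, against 10.7% of all 27305 promoters and 19.1% of those of tested genes. The YY1 motif AANATGGC occurred in 25 of the 68, or 36.8%, against 6.84% of all promoters and 10.2% of those of tested genes. Both motifs were thus more frequent in these windows than in the windows of tested genes, by shares only.

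The NRF1 motif GCGCANGCG was found in 12 members (17.6%, against 15.1% for tested genes), the E-box CACGTG in 6 (8.82%, against 10.1%) and the SP motif GGGCGG in 41 (60.3%, against 68.9%). These shares lay near those of tested genes. Of the 9 called members, 1 held the ETS motif, 3 the YY1 motif, 1 the NRF1 motif, 1 the E-box and 5 the SP motif. The median log2 fold change was -0.12 in the members with an ETS motif and -0.27 in those without, and -0.23 and -0.22 with and without a YY1 motif. These differences were not tested, and a match to letters is not a measured site of binding.

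MRPL1 (ENSG00000169288, chr4:77862520-77952790), the counterpart of bacterial L1 in the mobile arm beside the tRNA exit site, had the largest fitted fall of the family. With DMSO, libraries 1, 2 and 3 stood at 25.1, 26.6 and 27.6 CPM, and with Mi-2 at 15.2, 20.6 and 19.3 CPM, in the order kept below. The groups did not overlap, and Mi-2 library 1 stood lowest. The log2 fold change was -0.52 ± 0.13 (SE), a 1.44-fold fall with an adjusted p of 0.032. Leaving out any DMSO library, or Mi-2 library 1, ended the call, with adjusted p-values of up to 0.0987.

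MRPL12 (ENSG00000262814, chr17:81703357-81707526) forms the stalk that brings translation factors to the ribosome, and it had the smallest adjusted p of the family. It was at 88.3, 92.5 and 82.0 CPM in the DMSO libraries and at 60.3, 64.2 and 66.0 CPM in the Mi-2 libraries. The 3 Mi-2 values lay close together and well under the DMSO range. The log2 fold change was -0.46 ± 0.08 (adjusted p = 0.010), and the call was lost in 1 of the 6 fits with a library left out, where Mi-2 library 1 was missing (adjusted p = 0.0516).

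The other genes assigned to the stalk here, MRPL11 and MRPL10, were not called. MRPL11 was at 29, 36.7 and 39.1 CPM with DMSO and at 23.5, 28.5 and 33.9 CPM with Mi-2, overlapping ranges with a log2 fold change of -0.29 ± 0.15 that was not called (adjusted p = 0.26). MRPL10, which holds the stalk on the ribosome, was at 48.8, 47.7 and 59.3 CPM with DMSO and at 63.3, 57.0 and 67.4 CPM with Mi-2. Its groups overlapped through DMSO library 3, and its log2 fold change of 0.27 ± 0.11, the highest of the family, was not called (adjusted p = 0.14). Whether these 3 genes differ from one another was not tested.

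MRPL37 (ENSG00000116221, chr1:54184041-54225464) and MRPL39 (ENSG00000154719, chr21:25585656-25607517) are large subunit proteins found only in mitochondria. MRPL37 was at 96.4, 104 and 113 CPM in the DMSO libraries and at 70.6, 70.4 and 86.9 CPM in the Mi-2 libraries, a log2 fold change of -0.46 ± 0.11 (adjusted p = 0.025). MRPL39 was at 26.8, 30.5 and 32.7 CPM with DMSO and at 22.4, 23.2 and 23.1 CPM with Mi-2, a change of -0.39 ± 0.11 (adjusted p = 0.043). Neither gene's groups overlapped, but in MRPL37 Mi-2 library 3 came closer to the DMSO range than the other 2. Removal of DMSO library 2 or 3 or of Mi-2 library 1 or 2 ended the MRPL37 call (with adjusted p-values of up to 0.104), and MRPL39 kept its call only without DMSO library 1 (up to 0.143 otherwise).

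MRPL34 (ENSG00000130312, chr19:17292609-17306843), the counterpart of a small bacterial protein buried in the large ribosomal RNA, was at 45.2, 47.6 and 50.3 CPM with DMSO and at 35.3, 35.7 and 39.2 CPM with Mi-2. The Mi-2 libraries were all lower, and the log2 fold change was -0.38 ± 0.09 (adjusted p = 0.026). As for MRPL37, removal of DMSO library 2 or 3 or of Mi-2 library 1 or 2 ended the call, with adjusted p-values of up to 0.107.

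Of the small subunit, MRPS25 (ENSG00000131368, chr3:15042460-15065335), a protein found only in mitochondria, was at 136, 145 and 131 CPM in the DMSO libraries and at 98.1, 113 and 99.3 CPM in the Mi-2 libraries. Its log2 fold change was -0.41 ± 0.09 (adjusted p = 0.020), with no overlap between the groups. Without DMSO library 2 or Mi-2 library 1 it was not called, with adjusted p-values of up to 0.0892.

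MRPS23 (ENSG00000181610, chr17:57834781-57850056), likewise found only in mitochondria, was at 48.6, 47.7 and 46.7 CPM with DMSO and at 36.0, 39.7 and 35.6 CPM with Mi-2. The DMSO libraries were nearly equal, with a standard deviation of 0.956 CPM, and all Mi-2 libraries lay well under them. The log2 fold change was -0.36 ± 0.08 (adjusted p = 0.026). It kept its call only without Mi-2 library 2, with adjusted p-values of up to 0.107 in the other 5 fits.

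MRPS5 (ENSG00000144029, chr2:95087207-95149434) and MRPS7 (ENSG00000125445, chr17:75261674-75266373) are the counterparts of bacterial S5, near the entry of the messenger RNA, and S7, in the head of the subunit. MRPS5 was at 114, 120 and 111 CPM with DMSO and at 87.0, 99.4 and 91.1 CPM with Mi-2, a log2 fold change of -0.31 ± 0.08 (adjusted p = 0.043). MRPS7 was at 59.7, 60.4 and 63.1 CPM with DMSO and at 48.3, 47.9 and 52.0 CPM with Mi-2, a change of -0.31 ± 0.08 (adjusted p = 0.037). These were the smallest falls that were called, and in both genes the groups stood apart. MRPS5 kept its call only without Mi-2 library 2 (up to 0.169 otherwise) and MRPS7 only without Mi-2 library 3 (up to 0.138 otherwise).

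**Figure D2:**
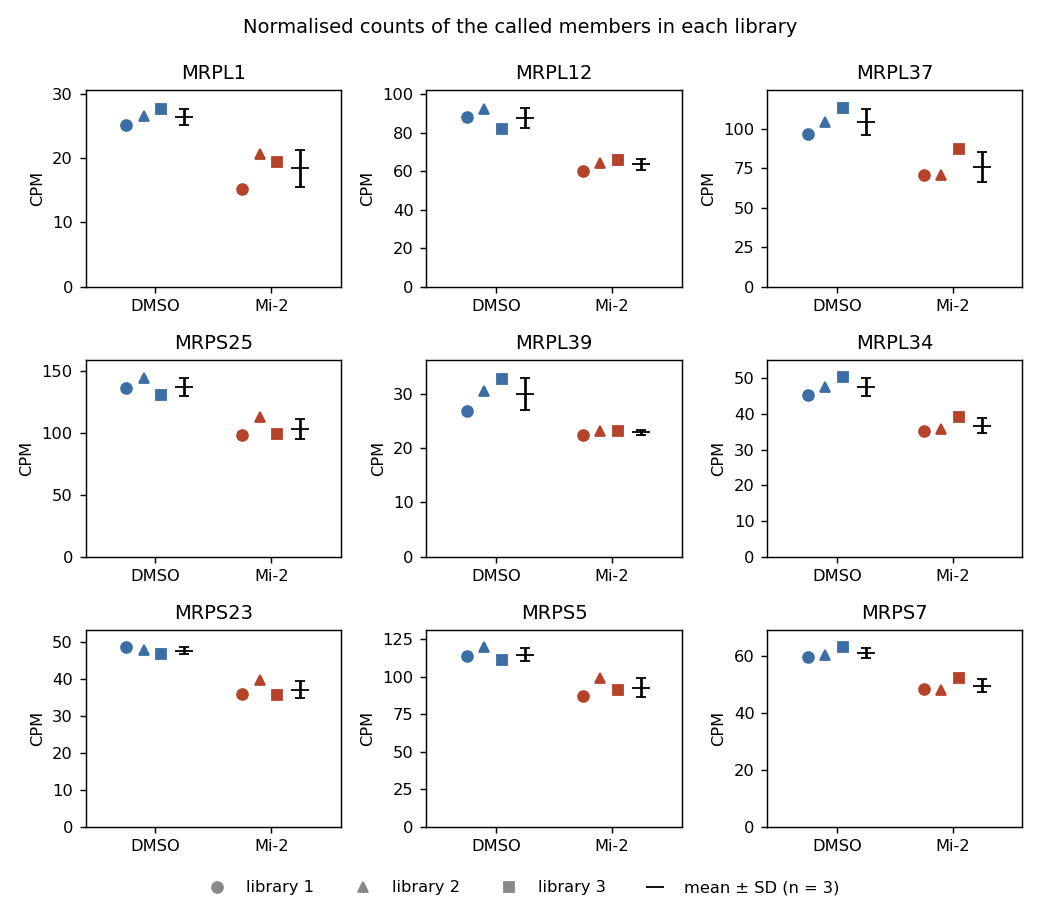
Normalised counts (CPM) of the 9 called genes in DMSO libraries 1 to 3 (blue) and Mi-2 libraries 1 to 3 (red), with symbols for the library number and bars for the mean and SD of 3 libraries, on axes that start at 0. In each of the 9 panels the highest Mi-2 library lies below the lowest DMSO library.

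The number of calls rested on single libraries. It was 5, 1 and 2 with DMSO library 1, 2 or 3 left out, and 0, 7 and 8 with the respective Mi-2 library left out. With fewer libraries the share of all tested genes called lower also fell, with a lowest share of 1.83% (Mi-2 library 1 left out) and a highest of 5.29% (Mi-2 library 3 left out). The median log2 fold change of the members moved less, and stayed between -0.22 and -0.17 when a library was left out.

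Mi-2 library 1 held the lowest levels. It had the lowest of the 3 Mi-2 values in 42 members, against 17 for library 2 and 18 for library 3. The median member stood at -0.25 on the log2 scale relative to the mean of the DMSO libraries in Mi-2 library 1, at -0.15 in library 2 and at -0.18 in library 3. The medians of the DMSO libraries were -0.03, -0.03 and 0.05. All 3 Mi-2 libraries thus lay below the 3 DMSO libraries, and the number of members under the lowest DMSO value was 58, 49 and 52 in Mi-2 libraries 1, 2 and 3.

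**Figure D3:**
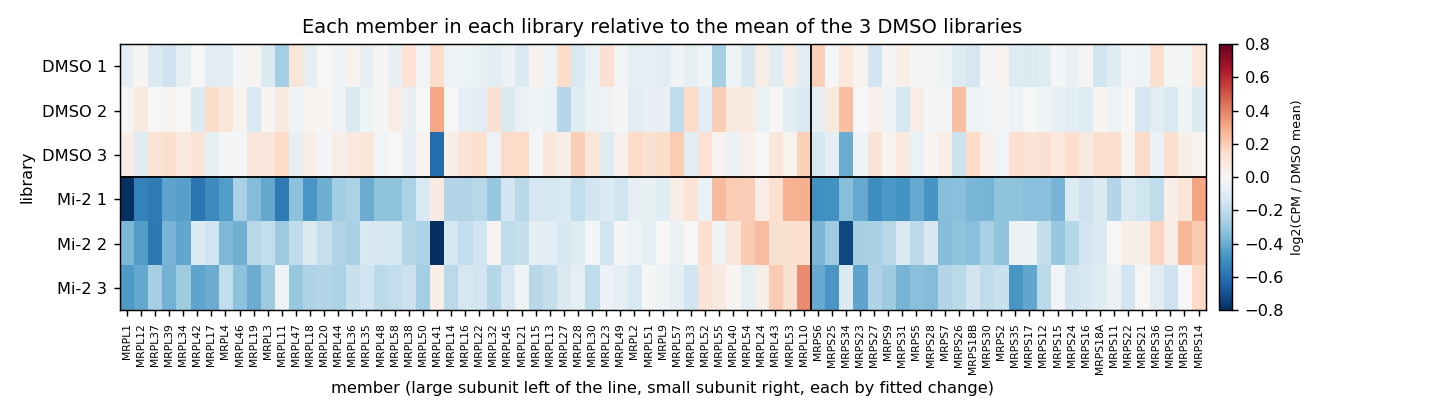
Log2 ratio of each gene's CPM in each library to its mean over the 3 DMSO libraries (blue lower, red higher), with genes as columns ordered by fitted change within the large and the small subunit and libraries as rows. The Mi-2 rows are mostly blue, deepest in Mi-2 library 1, and the columns of MRPL41 and MRPS34 differ between libraries of 1 group.

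Summed over the 77 genes, the scaled counts came to 3969, 4042 and 4175 CPM in the DMSO libraries. In the Mi-2 libraries they came to 3413, 3628 and 3603 CPM. The mean of the Mi-2 libraries was lower by 12.7%, and no Mi-2 library reached the lowest DMSO library. The sum was lower by 11.2% for the large subunit and by 14.8% for the small subunit. In TPM, a scale of transcript abundance corrected for gene length, the sums were 5542, 5689 and 5374 with DMSO and 4921, 4865 and 4872 with Mi-2. They too were apart, and the mean was lower by 11.7%.

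By name, 5 of the 49 large subunit genes (10.2%) and 4 of the 28 small subunit genes (14.3%) were called lower. The shares called lower were 6.03% of all tested genes and 7.31% of the tested protein-coding genes. Values below 0 were found in 41 and 26 of them, with medians of -0.19 and -0.27. The names do not match the structure in every case: MRPS30 and MRPS18A are built into the large subunit of the known structures, and MRPS36 belongs to neither subunit. With the genes sorted by structure, 5 of 51 large subunit genes (9.80%) and 4 of 25 small subunit genes (16%) were called. The medians were again -0.19 and -0.27. Whether the subunits differ was not tested.

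MRPS30 was at 105, 105 and 110 CPM with DMSO and at 82.5, 88.9 and 92.5 CPM with Mi-2, groups that did not overlap, and it narrowly missed the threshold (log2 fold change -0.28 ± 0.08, adjusted p = 0.054). MRPS18A was at -0.11 ± 0.10 and MRPS36 at -0.03 ± 0.13, both uncalled with overlapping groups. MRPS18B, a relative of MRPS18A that sits in the small subunit, was at -0.28 ± 0.10, also uncalled (adjusted p = 0.10), although its Mi-2 libraries were all below its DMSO libraries. Apart from MRPS30, the uncalled members nearest to the threshold were MRPL4 (-0.33 ± 0.09, adjusted p = 0.051), MRPL19 (-0.32 ± 0.09, adjusted p = 0.053) and MRPS2 (-0.27 ± 0.08, adjusted p = 0.057).

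Members classed here as having a bacterial counterpart and members classed as found only in mitochondria had medians close to each other, and their difference was not tested. MRPS18A and MRPS18B were placed in the latter class. Of 45 genes with a counterpart, 5 were called lower and 41 were below 0, with a median of -0.20. Of 31 genes found only in mitochondria, 4 were called lower and 25 were below 0, with a median of -0.22. The 10 of the latter in the small subunit had the lowest median, -0.30, with 2 called. The shares called lower in these 45, 31 and 10 genes were 11.1%, 12.9% and 20%, beside 6.03% of all tested genes.

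The central protuberance, the crown of the large subunit where it meets the small one, had 6 measured genes and no call. Of these, MRPL46 (-0.32 ± 0.10), MRPL18 (-0.27 ± 0.12), MRPL48 (-0.22 ± 0.10), MRPL58 (-0.22 ± 0.10) and MRPL38 (-0.22 ± 0.08) were below 0 with every Mi-2 library under every DMSO library, and MRPL40 was at 0.11 ± 0.10 with overlapping groups. Such a separation downward was found in 42 of the 77 members and in 16.6% of all tested genes. MRPL58 is a peptidyl-tRNA hydrolase that frees stalled ribosomes and is also built into the particle.

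The rim of the exit tunnel, through which the new protein leaves towards the inner membrane, had 5 measured genes and no call either. MRPL47 was at -0.28 ± 0.10, MRPL22 at -0.18 ± 0.10, MRPL45, which anchors the ribosome to the membrane, at -0.16 ± 0.09, and MRPL23 at -0.10 ± 0.09. MRPL24 was at 0.12 ± 0.09.

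Within the family the levels were far apart. Mean TPM over the 6 libraries ran from 10.8 (MRPL50) to 277 (MRPL24), a ratio of 25.7, with a median of 56.4 and quartiles of 34.2 and 85.6. Between 10 and 100 TPM lay 61 of the 77. The median was 62.1 TPM for genes named for the large subunit and 47.3 for those of the small subunit, and the median of the cytosolic ribosomal proteins was 2023 TPM.

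MRPL24 stood highest, with 284, 265 and 254 TPM in the DMSO libraries and 282, 308 and 270 TPM in the Mi-2 libraries. It was followed by MRPL53 (188 ± 12.3 TPM with DMSO and 201 ± 23.0 with Mi-2, SD, n = 3), MRPL20 (196 ± 5.82 and 157 ± 7.89), MRPL4 (179 ± 15.2 and 140 ± 9.57) and MRPL9 (141 ± 5.09 and 135 ± 2.31). The spread of MRPL53 overlapped that of MRPL20 with DMSO, so their order there was not resolved. In counts, MRPL20 was below 0 (-0.27 ± 0.08, adjusted p = 0.068) with no overlap of the groups, and MRPL53 was at 0.18 ± 0.09 (adjusted p = 0.26).

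At the other end, MRPL50 was at 11.6 ± 0.416 TPM with DMSO and 9.99 ± 0.760 with Mi-2, and MRPS17 at 14.4 ± 0.734 and 11.9 ± 1.7. MRPS31 (16.4 ± 1.14 and 13.1 ± 1.99), MRPL57 (15 ± 1.41 and 14.8 ± 0.978) and MRPS36 (17.4 ± 1.64 and 16.8 ± 1.89) had overlapping spreads with DMSO. None of these 5 was called. MRPS31 has near-identical pseudogene copies that drew counts equal to 29.8% of its own, so its value is uncertain. Of the other 34 members with named pseudogenes, none had copies above 5% of its counts.

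**Figure D4:**
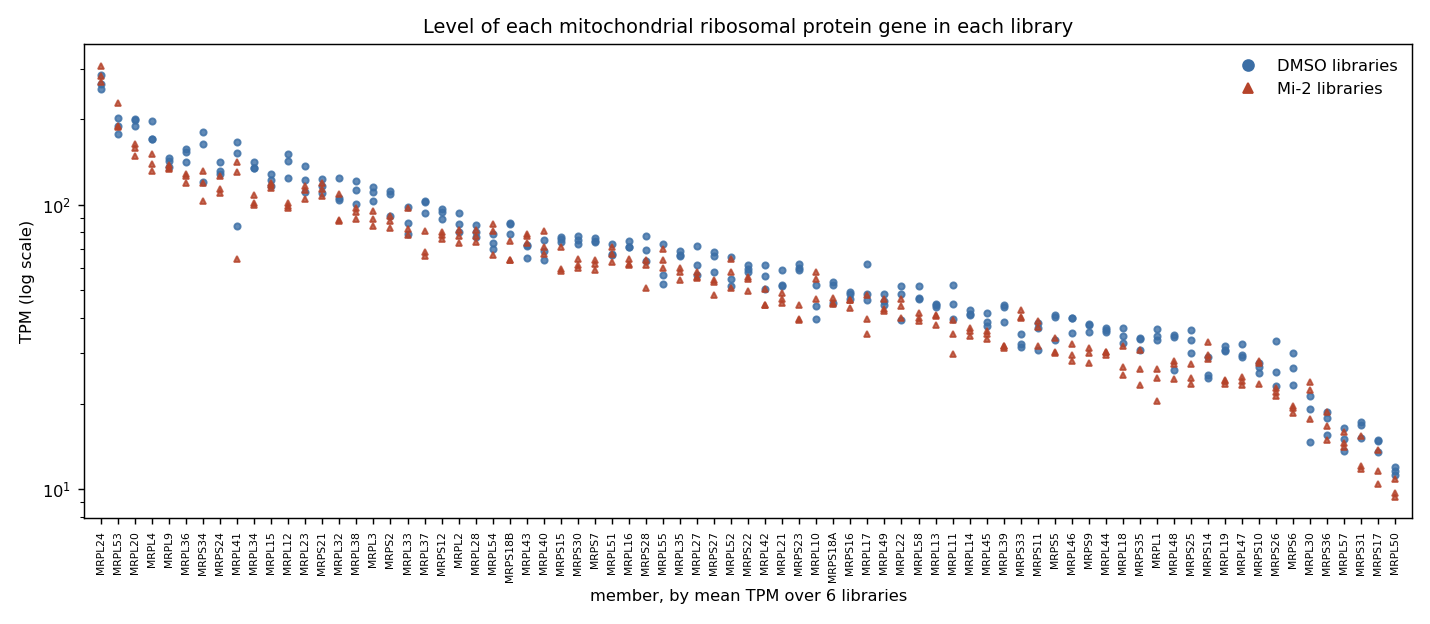
TPM (log axis) of each of the 77 genes in each DMSO library (blue circles) and Mi-2 library (red triangles), ordered by the mean over 6 libraries. Levels run from 10.8 TPM (MRPL50) to 277 TPM (MRPL24), and the red triangles lie below the blue circles for many genes, while MRPL41 and MRPS34 are spread widely within each group.

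Replicate libraries agreed closely for most members. The median coefficient of variation of CPM was 7.13% in the DMSO libraries and 6.64% in the Mi-2 libraries, and the median 95% interval of a log2 fold change reached 0.22 to either side. MRPL41 and MRPS34 spread most. MRPL41 was at 37.6, 42.1 and 22.2 CPM with DMSO and at 35.6, 17.5 and 35.2 CPM with Mi-2, and MRPS34 was at 93.0, 104 and 66.6 CPM with DMSO and at 69.4, 53.1 and 81.5 CPM with Mi-2. Both were low in DMSO library 3 and Mi-2 library 2, and neither was called (-0.21 ± 0.28 and -0.37 ± 0.18). The transcripts of MRPL41 had the highest GC content of the family, 71.9%, and those of MRPS34 had 63.6%. The coefficients of variation of MRPS34 were 21.9% with DMSO and 21.0% with Mi-2. Members of like GC content varied less, with 6.03% and 4.61% for MRPL12 (64.6% GC) and 6.63% and 8.76% for MRPL4 (63.2%). MRPS26 (63.4%) had 15.8% and 4.53%. The part of GC content in this spread was not tested.

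Several members share exons with other genes, and reads of such pairs may not have been told apart, because the sources used here do not state whether strand entered the counting. An opposite-strand gene with counts of at least 10% of the member's own overlapped 18 of the 77. Among the called members this held for MRPL37 with SSBP3 (log2 fold change 0.33, called) and CYB5RL (-0.47), for MRPL34 with ABHD8 (0.95, called), for MRPS7 with GGA3 (0.02) and MIF4GD (0.12), and for MRPS25 with NR2C2 (-0.22). The called neighbours SSBP3 and ABHD8 were higher after Mi-2, where the members were lower. MRPL43 overlaps TWNK, the mitochondrial DNA helicase, and the pair had values of 0.15 and -0.42. Other members overlap a gene on the same strand, where use of the strand would not separate the reads. The called MRPS5 overlaps ZNF514 (0.07) in this way, with counts of 15.8% of those of MRPS5. Uncalled members with such a partner included MRPS17 (NIPSNAP2, 181% of its counts) and MRPL33 (BABAM2, 173%).

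Many members start back to back with another gene. Only protein-coding neighbours on the other strand, read away from the member, were counted. The start of such a neighbour lay within 1000 bases in 16 of the 77, or 20.8%, against 9.88% of the tested protein-coding genes. The neighbour was called in 2 of these pairs, both with the member uncalled. TCP1, a subunit of the cytosolic chaperonin that starts 63 bases from MRPL18, fell (-0.56 ± 0.09, adjusted p = 0.0075), and SKA3, a kinetochore protein that starts 43 bases from MRPL57, fell (-0.93 ± 0.20, adjusted p = 0.019). Removal of DMSO library 3 or of Mi-2 library 1 or 2 ended the SKA3 call (with adjusted p-values of up to 0.0676). MRPL57 itself was at -0.02 ± 0.12. MRPS11 and MRPL46 start 34 bases apart, at -0.09 ± 0.10 and -0.32 ± 0.10.

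Calls in the related lists that follow stand beside 6.03% of all tested genes called lower and 5.02% called higher. Among the 6 subunits of the mitochondrial ribosome outside the naming rule, all were below 0, with a median of -0.15. PTCD3, a small subunit protein near the entry of the messenger RNA, was called, with 105 ± 4.58 CPM in the controls and 80.6 ± 2.69 CPM after treatment (-0.38 ± 0.08, adjusted p = 0.017). Removal of DMSO library 2 or 3 or of Mi-2 library 1 ended its call (with adjusted p-values of up to 0.0682). DAP3 (-0.05 ± 0.09), MRPS18C (-0.17 ± 0.09), CHCHD1 (-0.10 ± 0.11), AURKAIP1 (-0.14 ± 0.08) and GADD45GIP1 (-0.16 ± 0.27) were not called.

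Factors that assemble the mitochondrial ribosome or modify its RNA numbered 28, of which 3 were called lower and 24 were below 0, with a median of -0.23. The RNA helicase DDX28, which acts in large subunit assembly, fell from 37.7 ± 2.27 to 24.1 ± 2.15 CPM (-0.65 ± 0.10, adjusted p = 0.0067), a larger fall than that of any member, and stayed called with any one library left out. RCC1L, an assembly factor (-0.38 ± 0.10, adjusted p = 0.036), and DHX30, another RNA helicase (-0.32 ± 0.09, adjusted p = 0.039), were also lower. RCC1L kept its call only without Mi-2 library 3 (adjusted p up to 0.126 otherwise), and DHX30 in none of the 6 fits with a library left out (0.0536 to 0.153).

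Of 17 factors of mitochondrial translation, 4 were called lower and 14 were below 0, with a median of -0.16. LRPPRC, which binds and stabilises mitochondrial messenger RNAs, fell from 260 ± 14.5 to 183 ± 15.3 CPM (-0.51 ± 0.09, adjusted p = 0.010) and stayed called with any one library left out. The elongation factors GFM1 (-0.37 ± 0.10, adjusted p = 0.043), TSFM (-0.32 ± 0.08, adjusted p = 0.039) and TUFM (-0.31 ± 0.09, adjusted p = 0.047) fell as well. GFM1 kept its call only without Mi-2 library 2 (up to 0.134 otherwise), and TSFM and TUFM lost theirs without any one of the 6 libraries (up to 0.153 and 0.174).

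Genes of mitochondrial transcription, DNA upkeep and RNA processing numbered 15. All were below 0, with a median of -0.24, and 3 were called lower. These were TRMT10C, a subunit of mitochondrial RNase P (-0.47 ± 0.13, adjusted p = 0.042), TFAM, which packages mitochondrial DNA and activates its transcription (-0.43 ± 0.11, adjusted p = 0.032), and TWNK (-0.42 ± 0.10, adjusted p = 0.024). Their highest adjusted p-values with a library left out were 0.119, 0.130 and 0.0996. With DMSO library 2 or 3 or Mi-2 library 1 left out, none of the 15 was called, against 1 with DMSO library 1 or Mi-2 library 3 left out and 4 with Mi-2 library 2 left out.

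In counts, the RNAs that the mitochondrial ribosome translates lay on the other side of 0. All 13 mitochondrially encoded messenger RNAs had a log2 fold change above 0, from 0.09 to 0.34 with a median of 0.13, and none was called by edgeR, with 0 at an unadjusted p under 0.05 and 0 called by DESeq2, although 1 was called higher without DMSO library 3 and 1 with no filter on low counts. They come from long shared transcripts, so the 13 do not vary independently. The direction depended on the unit for some of them. In TPM, MT-ND4L was at 20776, 19300 and 18753 with DMSO and lower, at 16848, 17118 and 17979, with Mi-2. MT-ATP8, with the largest rise in counts, overlapped in TPM (33987, 24867 and 40497 with DMSO, 34067, 30808 and 28467 with Mi-2). Of the ribosomal RNAs, MT-RNR1 was at -0.40 ± 0.22 and MT-RNR2 at 0.20 ± 0.11, both uncalled, and how ribosomal RNA was treated in making the libraries is not given in the sources used here.

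Together the 13 messenger RNAs took shares of 4.46%, 4.23% and 4.66% of all counts with DMSO, and of 4.86%, 5.05% and 5.00% with Mi-2. Every Mi-2 library was above every DMSO library, by a mean of 0.52 percentage points. An exact two-sided permutation test gave p = 0.1, the smallest that 3 against 3 libraries allow. As a share of TPM the groups overlapped, with a difference of 0.28 percentage points (exact permutation p = 0.9).

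Genes of the mitochondrial stress response, which is known to be set off when mitochondrial translation fails, did not move as one. Of 11 tested, 3 were called lower, namely the chaperones HSPD1 (1045 ± 107 CPM with DMSO and 626 ± 127 with Mi-2, -0.74 ± 0.14, adjusted p = 0.014) and HSPA9 (-0.38 ± 0.09, adjusted p = 0.031) and the protease LONP1 (-0.47 ± 0.13, adjusted p = 0.043). DDIT3, a transcription factor of several stress responses, rose from 4.88 ± 0.425 to 12 ± 4.17 CPM (1.29 ± 0.24, adjusted p = 0.011). DDIT3 stayed called with any one library left out, whereas HSPD1 was lost without DMSO library 2 (adjusted p = 0.0616). HSPA9 kept its call only without Mi-2 library 2 (up to 0.113 otherwise), and the LONP1 call ended on removal of DMSO library 2 or 3 or of Mi-2 library 1 or 2 (up to 0.154).

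Among 10 regulators of mitochondrial biogenesis, 2 were called lower and 9 were below 0, with a median of -0.23. MYC, a transcription factor that drives growth genes, fell from 489 ± 24.6 to 356 ± 37.4 CPM (-0.46 ± 0.10, adjusted p = 0.020), and the coactivator PPRC1 fell (-0.32 ± 0.09, adjusted p = 0.046). The MYC call ended on removal of DMSO library 2 or 3 or of Mi-2 library 1 or 2 (with adjusted p-values of up to 0.0809), and PPRC1 kept its call only without Mi-2 library 3 (up to 0.179 otherwise). The factors named for the promoter motifs above, NRF1 (-0.21 ± 0.11), GABPA (-0.07 ± 0.09) and YY1 (-0.06 ± 0.11), were not called.

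The cytosolic ribosomal proteins and the nuclear subunits of the respiratory chain, taken for comparison, had medians near that of all genes. Of 84 tested cytosolic ribosomal protein genes, edgeR called none in either direction, DESeq2 called 1 lower and 1 higher, 4 had an unadjusted p under 0.05, and the median log2 fold change was 0.01, with 38 below 0. Of 77 tested nuclear subunits of the respiratory chain and ATP synthase, partners of the proteins made by the mitochondrial ribosome, the median was -0.02, with 44 below 0. NDUFV1 of complex I was called lower (-0.36 ± 0.08, adjusted p = 0.021) and ATP5ME of the ATP synthase higher (0.44 ± 0.10, adjusted p = 0.027). DESeq2 called 4 of these genes lower and 3 higher. NDUFV1 kept its call only without Mi-2 library 3 and ATP5ME in none of the 6 fits with a library left out, with adjusted p-values of up to 0.0879 and 0.0915. Whether the families differ from the mitochondrial ribosomal proteins was not tested.

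**Figure D5:**
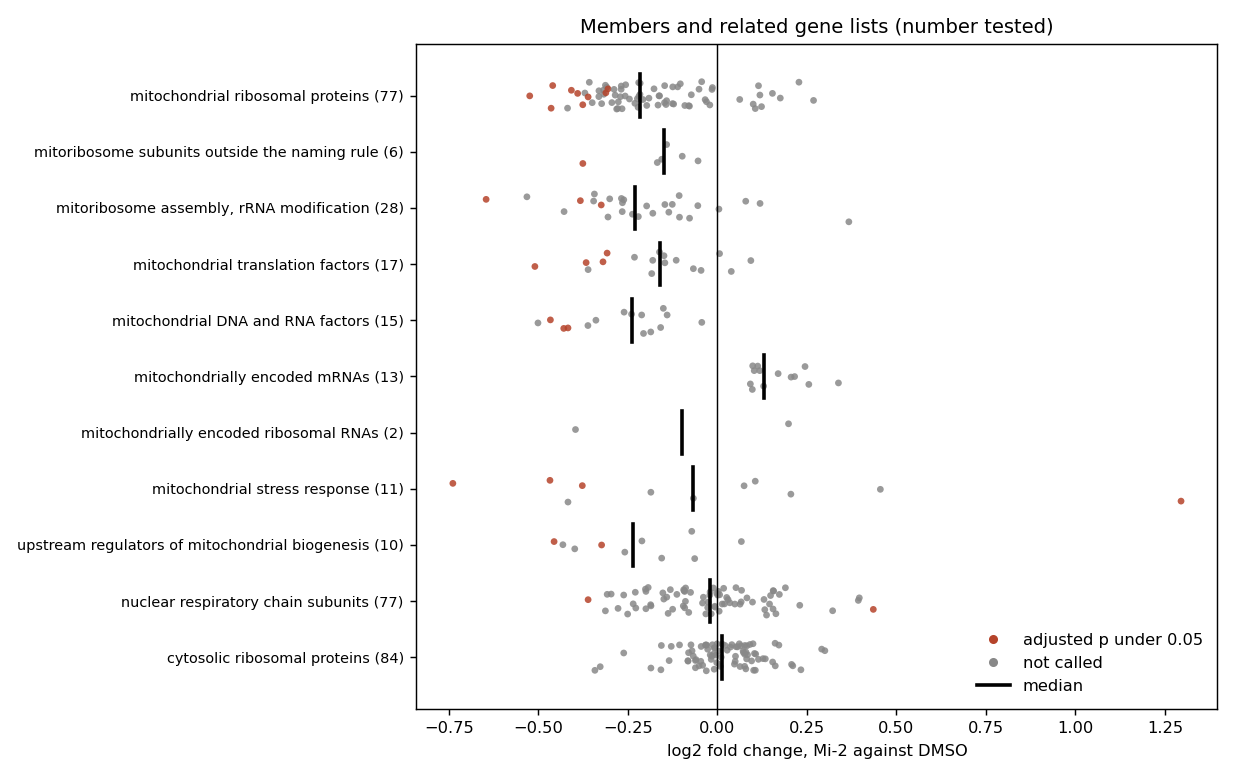
Log2 fold change of Mi-2 against DMSO for each tested gene (points, shifted at random in height only) of the mitochondrial ribosomal proteins and 10 related lists, with calls in red and the median of each list as a black bar. The medians of the mitochondrial ribosomal proteins (-0.22), assembly factors (-0.23) and mitochondrial DNA and RNA factors (-0.24) lie left of 0, and the 13 mitochondrially encoded messenger RNAs all lie right of it.

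The libraries held 19980689 to 23756745 counts each, and within a group they differed by 16.6 to 23.4 times the chi-square that counting alone gives per degree of freedom, so none was a copy of another. All 9 plasma cell markers were measured, with summed levels of 9549 to 13404 TPM with DMSO and 10528 to 13739 TPM with Mi-2, 2 called lower and 2 higher. Markers of T and NK cells passed the filter for 1 of 8 genes (CD3E, called higher), with summed levels of 29.3 to 34.2 and 42.5 to 47.7 TPM and with CD8A and CD3D at 0 in all libraries. None of 7 myeloid markers passed the filter, and their sum was at most 2.86 TPM. Of 8 markers of stroma, endothelium and epithelium, KRT18 and PECAM1 were tested and called higher, with summed levels of 67.1 to 83.7 and 82.9 to 120 TPM and COL1A2, COL3A1 and CDH5 at 0. Of 6 erythroid and platelet markers 2 were tested and none called, with summed levels of 1.78 to 18.5 and 2.25 to 19.8 TPM. The part of these genes in the results on the mitochondrial ribosome was not tested.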

How the data were processed

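The cells, groups and libraries are those described above. RSEM 1.3.3, StringTie 2.1.0, HISAT2 2.1.0 and fastp 0.19.5 were used on build GRCh38.p13, per the submitters' processing notes, which state no roles. For the counting, strand use and annotation release were not given in the sources used here. Estimated counts per gene, deposited by the authors and not scaled between libraries, were rounded to whole numbers here. The authors also deposited TPM values, corrected for gene length.

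Genes were filtered with filterByExpr (minimum count 10, minimum total 15), scaled by TMM and tested in all 6 libraries with edgeR 4.0.16 (R 4.3.3), with the treatment as the only term and p-values adjusted over 16082 genes. The standard error is the size of the fold change divided by the root of F. What edgeR names the biological coefficient of variation was 14.2%, a spread that may be technical here. Small changes could be missed at any level, and more easily in low genes. Gene coordinates and exon overlaps are those of GENCODE release 29 on GRCh38.

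The members and gene lists were chosen with earlier results of these data known. Genes were named by rule: called members, members with the highest, lowest or nearest-to-threshold values, members of the stalk, central protuberance and exit tunnel, members whose name and place differ, up to 4 called genes per related list and direction, every subunit outside the naming rule, and called back-to-back neighbours. MRPL41, MRPS34, MRPL43, MRPS14, MRPS11, the genes with overlapping exons, the uncalled regulators and the cell type markers named were chosen after their values were seen. The tests were run on simulated counts with set changes larger than the falls of the called members. That check does not cover changes of the size reported here.

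The result was recomputed with DESeq2 1.42.0 and limma-voom (limma 3.58.1), with scaling by upper quartiles or RLE, unfiltered or with 1 CPM required in 3 libraries, after taking out the 20 highest, the immunoglobulin and the mitochondrially encoded genes, with limma on log2 TPM (pseudocount 1 or 0.1, mean TPM of at least 1, or unfiltered), with a block for the number in the title, and without each library in turn.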

Additional observations from a re-analysis of the deposited data

How the results depend on the processing

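The median log2 fold change of the members kept its sign in all 17 alternative fits and stayed between -0.24 and -0.17, and 62 to 67 members were below 0. The count of calls was less stable. Against 9 members called lower, DESeq2 called 15 (8 large, 7 small) beside 7.89% of all tested genes, and edgeR without a filter called 16 (10 large) beside 4.90%. Limma on log2(TPM + 1) or log2(TPM + 0.1) called 5 each (1 small each) beside 2.73% and 2.85%. Limma on log2(TPM + 1) with no TPM filter called 0 members (0 large, 0 small), but it also called 0 of 31463 genes. RLE scaling gave 10, upper-quartile scaling 7, limma-voom 10, the filter of 1 CPM 11 and removal of the highest genes 9, beside 5.28% to 7.01% of all tested genes. With a library left out, 0 to 8 members were called lower (large 0 to 5, small 0 to 3) and 0 higher, with fewer libraries to estimate the spread. Of the related lists, DESeq2 called lower 6 assembly factors, 5 translation factors and 4 mitochondrial DNA and RNA factors, and limma on TPM (mean of at least 1) called 2, 2 and 0. Several single calls were lost in every limma fit on TPM. Adjusted p-values there reached 0.61 for TWNK, 0.54 for ATP5ME, 0.42 for PTCD3 and 0.35 for MRPS5. Of the nuclear respiratory chain genes, 3 were called lower and 3 higher without a filter, and 1 and 3 with upper-quartile scaling. The excess of mitochondrially encoded messenger RNA counts ranged from 0.41 to 0.63 percentage points. The pseudocount in the TPM fits shrinks the fold changes of low genes. The median of the members was not smaller in size there, at -0.24 in each TPM fit against -0.22 in the main fit.

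With the replicate block, 25 members were called lower (14 large, 11 small), all 9 among them, and 1 higher (MRPL10), while the share of all genes called lower was 12.7%. The block also called 4 mitochondrially encoded messenger RNAs higher, 9 nuclear respiratory chain genes lower and 4 higher, and 3 cytosolic ribosomal protein genes lower and 5 higher. The deviations of same-numbered libraries correlated at 0.41, 0.06 and 0.26, and those of differently numbered libraries at -0.33 to 0.08. Each DMSO library correlated best with the Mi-2 library of its number, for DMSO library 2 by a narrow margin (0.059 against 0.057). Mi-2 library 2 correlated best with DMSO library 3 (0.079). The labels state no pairing, so the numbers were not taken to pair the libraries, and whether they do was not tested.

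Among the named genes, 4 changed sign under an alternative. With upper-quartile scaling MRPL57 was at 0.0054. With a library left out, MRPL9 ran from -0.088 to 0.029 (above 0 without DMSO library 3), MRPL57 from -0.11 to 0.085 (above 0 without DMSO library 3 or Mi-2 library 3), MRPS36 from -0.15 to 0.050 (above 0 without library 1 of either group) and GADD45GIP1 from -0.41 to 0.17 (above 0 without library 2 of either group). The lowest mean level of a member was 14 CPM in these libraries, and 3 libraries a group limit the precision.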
